A study of Mus musculus with 16 samples.

Results

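Five-alpha-reductase blockade in an intact prostate was compared with a genetic lesion left untreated. The 5 prostate libraries of wild type (+/+) mice given finasteride were set against the 3 prostate libraries of homozygous mutant (-/-) mice given vehicle, so both genotype and treatment differed between the groups. The features compared were the 16506 genes, of 29535 in the deposited table, whose log2 expression averaged at least about 3.3 over all 16 libraries of the series. Gm16325 lay just inside that limit, with a mean of 3.3206, and Slc3a1 just outside, with 3.3196. The question was how far the drugged wild type prostate resembles the mutant prostate, and where the 2 states differ. Another 3 libraries of wild type mice on vehicle served as a common reference point, and 5 of mutant mice on finasteride entered only the shared estimate of the spread. All mice were 12 months old, on a hybrid 129/SvImJ and C57Bl/6J background. The dose, the length of treatment, the lobe of the prostate and the cells in which the mutation acts are not given in the sources used here. Nothing in the labels says that the libraries of a group came from different animals. The p-values therefore reflect how far these libraries scatter, which may be technical scatter.

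The 5-alpha-reductases turn testosterone into dihydrotestosterone, the stronger androgen, and finasteride inhibits them. In the prostate androgens keep luminal cells alive and drive their secretory program, which fills the ducts with large amounts of a few proteins. Such cells depend on protein folding in the endoplasmic reticulum, and on the unfolded protein and integrated stress responses that adjust it. Mouse prostate lobes differ in which products they make.

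Values are the authors' normalized expression on a log2 scale, differences are wild type finasteride minus mutant vehicle in log2 units, and errors beside them are moderated standard errors from limma. The log2 of each library's summed linear values ranged from 24.41 to 24.55 for wild type on finasteride and from 24.32 to 24.43 for mutant on vehicle. Read depth is unknown, so no counting interval is given. Probasin, the luminal keratin Krt8 and the prostate transcription factor Hoxb13 were abundant in all 8 libraries, as their values given further on show. Wild type finasteride library 4 lay within 0.0785 log2 units, as a root mean square, of a mixture of libraries 3 and 5 of its group, and mutant vehicle library 3 lay within 0.0701 of a mixture of libraries 1 and 2. If such libraries are not separate samples, p-values over all libraries are too small. Counts are therefore also given from a fit without these 2 and the 3 similar libraries of the other groups, called the 11-library fit. Wild type finasteride library 2 stood apart from its group, at 29.5 on the first principal component against 65.5 to 78.3 for the other 4.

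The 2 states were distinct, yet most genes lay close together. At a limma adjusted p under 0.05, 5143 genes differed, which was 31.2% of those tested, with 2483 higher in wild type on finasteride (15.0%) and 2660 lower (16.1%). The 11-library fit called 850 higher (5.15%) and 1151 lower (6.97%). Of its 2001 calls, 1996 were also calls in the same direction over all libraries. The 5 and the 3 libraries did not overlap for 5613 genes (34.0%). A difference of over 1 log2 unit was fitted for 1327 of the called genes. For 12533 genes the 95% interval of the difference lay inside 1 log2 unit either way. The median difference over all genes was 0.012. With all libraries scaled to equal totals that median became -0.11 and the share of calls that were higher went from 48.3% to 27.4%, with 1369 higher and 3625 lower, so a difference of this size depends on the scaling.

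As a whole, the drugged wild type was about as far from the mutant as each was from wild type on vehicle. The root mean square distance over all tested genes between a wild type finasteride and a mutant vehicle library ranged from 0.774 to 0.864, with a median of 0.82 over 15 pairs. It ranged from 0.729 to 1.03 (median 0.895) between wild type finasteride and wild type vehicle, and from 0.877 to 0.961 (median 0.898) between mutant vehicle and wild type vehicle. Within groups it ranged from 0.354 to 0.777 for wild type finasteride and from 0.296 to 0.387 for mutant vehicle. On average 4 of the 5 wild type finasteride libraries lay nearer to the mutant vehicle than to the wild type vehicle libraries. The exception was library 2, at 0.84 against 0.738. Over genes with a mean of at least log2(50) only 2 of the 5 did so, hence that order rests partly on genes with low values.

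**Figure D1:**
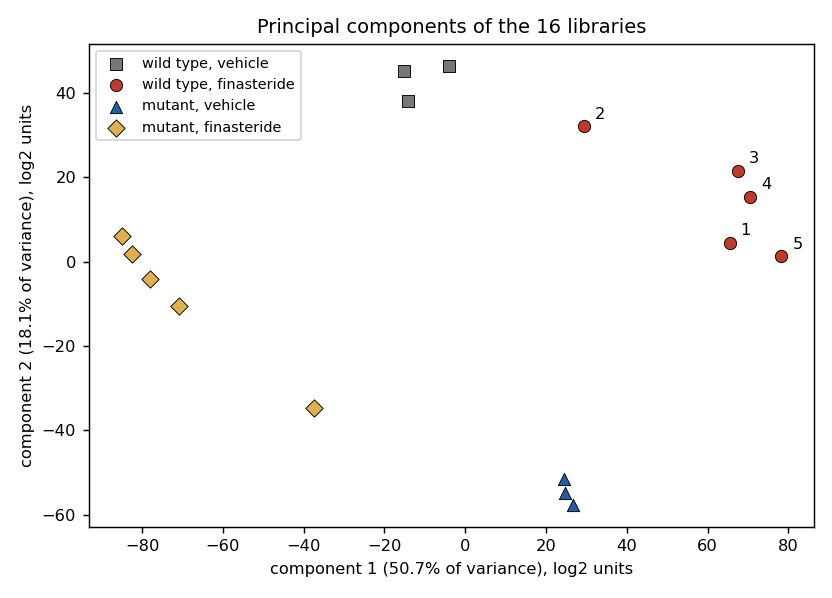
Position of the 16 libraries on the first (50.7% of variance) and second (18.1%) principal component of the tested genes, with the wild type finasteride libraries numbered. Mutant vehicle libraries sit at 24.6 to 26.7 on the first component, near wild type finasteride library 2, and far below all wild type libraries on the second.

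The gene lists show which parts of the prostate program separated the states. More than the background share of members was higher in wild type on finasteride in the stress and chaperone lists, and lower in the cell cycle, T and NK cell, basal and proximal luminal lists. The lists for ribosomes and oxidative phosphorylation had fewer calls than the background share. In whole tissue, fewer cells of a type and less RNA per cell cannot be told apart.

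**Figure D2:**
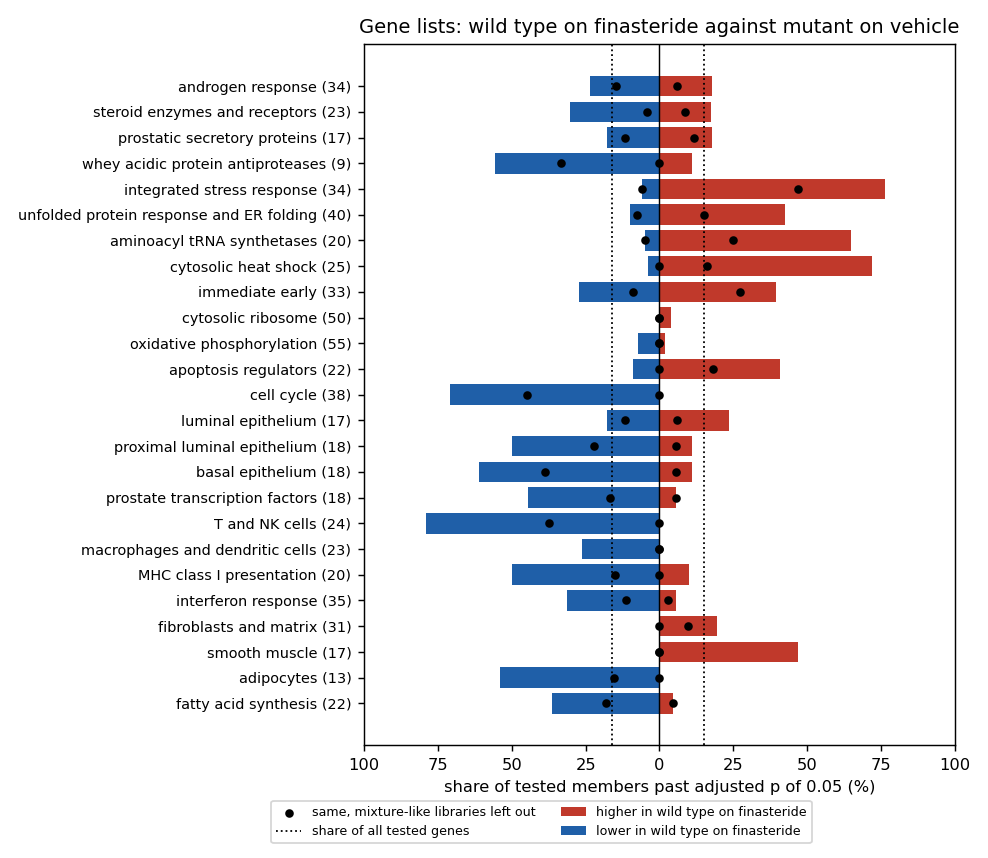
Share of each list's tested members (number in brackets) past a limma adjusted p of 0.05, lower in wild type on finasteride to the left and higher to the right, with dots for the 11-library fit. Dotted lines mark the share of all tested genes, 16.1% lower and 15.0% higher; 26 of 34 integrated stress response genes lay to the right and 27 of 38 cell cycle genes to the left.

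Some genes stood at nearly the same level in both states while both lay away from wild type on vehicle. These genes were chosen by that pattern, so their values are a description without a test, and the 2 distances share the wild type vehicle libraries. Sord, sorbitol dehydrogenase of the polyol pathway, measured 13.23, 12.54, 12.76, 12.89 and 12.98 in wild type finasteride libraries 1 to 5, 12.71, 12.72 and 12.70 in mutant vehicle libraries 1 to 3, and 11.11, 11.67 and 11.53 in wild type vehicle. It was higher in both states than in every wild type vehicle library. Tfap2c, Id3, Pou2f3 and Mertk shared that pattern, and the 95% intervals of the difference between the states were -0.22 to 0.36, -0.46 to 0.46, -0.33 to 0.44 and -0.30 to 0.24. The first 3 encode transcription regulators, and Mertk is a receptor kinase for the clearance of dying cells.

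Genes at a common lower level included Creb3l4, a membrane-bound transcription factor of the endoplasmic reticulum that is abundant in prostate luminal cells. It measured 7.26, 8.26, 8.00, 7.77 and 7.38 in wild type on finasteride, 7.52, 7.74 and 7.72 in the mutant, and 9.44, 9.07 and 9.28 in wild type on vehicle. Ampd3, an AMP deaminase, measured 6.70, 7.15, 6.82, 6.88 and 6.65 on finasteride, 6.81, 6.79 and 6.87 in the mutant, and 9.33, 8.32 and 8.72 in wild type vehicle. All 8 libraries of the 2 states lay below the wild type vehicle range for both genes. Ccdc80, Sybu, F13a1 and Urah were among the other genes of this kind, with 95% intervals between the states of -0.28 to 0.38, -0.47 to 0.36, -0.35 to 0.49 and -0.34 to 0.36.

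Hormone pathway genes differed in part. Srd5a2, the prostatic 5-alpha-reductase that finasteride blocks, measured 6.26, 6.76, 6.30, 6.20 and 5.63 in wild type on finasteride, 6.53, 6.43 and 6.52 in the mutant, and 7.61, 7.33 and 7.73 in wild type on vehicle. Both states lay below the wild type vehicle libraries and overlapped each other, with a difference of -0.26 ± 0.20 (95% interval -0.69 to 0.17, limma adjusted p = 0.355). Srd5a1 (-0.052 ± 0.13, adjusted p = 0.792) and Srd5a3 (-0.10 ± 0.088, adjusted p = 0.403) did not pass the test in the limma fit either.

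Of 23 steroid enzymes and receptors, 4 were higher and 7 lower on finasteride, and 2 and 1 in the 11-library fit. Cyp7b1, a hydroxylase that inactivates androgen metabolites acting on estrogen receptor beta, was higher by 1.23 ± 0.13 (limma adjusted p = 3.4e-06), and Rdh11, a retinal reductase, by 1.18 ± 0.087 (adjusted p = 9.03e-08). Hsd17b11, a steroid and lipid droplet dehydrogenase, measured 11.17, 11.03, 11.01, 11.06 and 11.12 on finasteride and 12.29, 12.37 and 12.36 in the mutant, while wild type vehicle libraries held 11.00, 10.88 and 11.00. Wild type libraries of both treatments lay between 10.88 and 11.17 and the mutant libraries above, with a difference of -1.27 ± 0.086 (limma adjusted p = 3.98e-08). Pgr, the progesterone receptor (-0.92 ± 0.20, adjusted p = 0.00236), and Prlr, the prolactin receptor (-0.51 ± 0.13, adjusted p = 0.00712), were lower over all libraries and lost the limma call in the 11-library fit.

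Of 34 androgen-induced cellular genes, 6 were higher and 8 lower, near the background shares, and 2 and 5 in the 11-library fit. Without mutant vehicle library 2 the higher count was 3. Tmprss2, a membrane serine protease of luminal cells, measured 13.83, 13.82, 13.85, 13.87 and 13.88 on finasteride and 12.33, 12.77 and 12.64 in the mutant, against 13.41, 13.49 and 13.41 in wild type on vehicle. All finasteride libraries lay above the wild type vehicle range and all mutant libraries below it, a difference of 1.27 ± 0.080 (limma adjusted p = 1.78e-08). Mme, the cell surface peptidase neprilysin, ran the other way, at 11.79, 12.51, 12.10, 12.01 and 11.82 on finasteride and 13.80, 14.04 and 13.93 in the mutant. Its difference was -1.88 ± 0.14 (3.68-fold lower on finasteride, limma adjusted p = 8.43e-08). Wild type vehicle libraries held 14.40, 14.05 and 14.29. From these, Mme differed by -2.20 ± 0.14 on finasteride and by only -0.32 ± 0.15 in the mutant. Inpp4b, a phosphoinositide phosphatase, was also lower on finasteride (-1.27 ± 0.19, limma adjusted p = 0.000112). It differed from wild type on vehicle by -1.2 ± 0.19 on finasteride and 0.074 ± 0.21 in the mutant. Fkbp5, a chaperone induced by steroid receptors, measured 10.36, 11.54, 11.93, 11.32 and 10.24 on finasteride and 11.27, 11.73 and 11.54 in the mutant. These ranges overlapped and the difference of -0.44 ± 0.30 did not pass (limma adjusted p = 0.296).

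Genes downstream of the prolactin receptor included some of the larger differences of the hormone lists. Cish, a STAT5 target that restrains cytokine receptors, measured 7.77, 8.44, 7.55, 7.28 and 7.42 on finasteride and 10.19, 9.92 and 10.10 in the mutant, with 8.60, 7.96 and 8.03 in wild type on vehicle. The mutant libraries stood above both wild type groups, and the difference was -2.38 ± 0.23 (limma adjusted p = 1.92e-06). Jak2, the kinase that the receptor uses, was lower (-1.11 ± 0.095, limma adjusted p = 4.31e-07). In all, 3 of the 10 STAT5 and prolactin pathway genes tested were lower and 1 higher, and 2 and 0 in the 11-library fit.

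The main secreted products fell into different patterns. Probasin (Pbsn), the classical androgen-driven product of the mouse prostate, measured 18.19, 17.50, 17.92, 18.12 and 18.32 on finasteride and 15.66, 15.73 and 15.69 in the mutant, with 18.08, 18.31 and 18.30 in wild type on vehicle. Finasteride libraries, apart from library 2, lay within or near the wild type vehicle range and the mutant libraries below, a difference of 2.31 ± 0.22 (4.97-fold higher on finasteride, limma adjusted p = 1.66e-06). Mmp7, the secreted metalloprotease matrilysin, had the same arrangement, at 15.37, 14.75, 14.76, 15.04 and 15.24 on finasteride, 11.01, 10.54 and 10.64 in the mutant and 15.12, 14.88 and 14.99 in wild type on vehicle. Its difference was 4.30 ± 0.25 (19.7-fold, limma adjusted p = 9.87e-09). Defb50, a beta-defensin, ran the other way: 11.48, 13.39, 12.20, 12.45 and 12.65 on finasteride, 15.73, 15.92 and 15.78 in the mutant and 15.11, 16.42 and 16.06 in wild type on vehicle. The finasteride libraries alone were low (-3.38 ± 0.40, 10.4-fold lower than the mutant, limma adjusted p = 1.09e-05).

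Other products varied widely within the finasteride group. Sbp, the spermine-binding protein, measured 9.95, 19.36, 19.31, 18.34 and 10.39 in its libraries 1 to 5, against 8.98, 8.39 and 6.02 in the mutant and 19.85, 19.68 and 19.73 in wild type on vehicle. Libraries 1 and 5 stood above the mutant range, though far closer to it than to wild type on vehicle. Libraries 2 to 4 stood near the wild type vehicle level. The difference of 7.67 ± 1.86 passed over all libraries (limma adjusted p = 0.00529) but not in the 11-library fit (adjusted p = 0.149). Spink3, a trypsin inhibitor, split the same libraries, at 7.97, 17.25, 16.68, 15.68 and 8.52, around the mutant values of 13.79, 14.26 and 14.04, and its difference did not pass (limma adjusted p = 0.764). Msmb, beta-microseminoprotein, measured 8.65, 13.62, 10.86, 10.82 and 10.79 on finasteride, 9.90, 9.29 and 9.58 in the mutant and 15.73, 16.39 and 16.10 in wild type on vehicle. Both states lay below the wild type vehicle range, library 2 the least, and their difference of 1.36 ± 0.67 did not pass (limma adjusted p = 0.142). The labels name no lobe, and whether the libraries differ in lobe was not tested. Of 17 secretory genes tested, 3 were higher and 3 lower, near the background shares of 15.0% and 16.1%, and 2 and 2 in the 11-library fit. The lower genes of both fits include Nkg7, which is also counted in the list of T and NK cell genes.

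**Figure D3:**
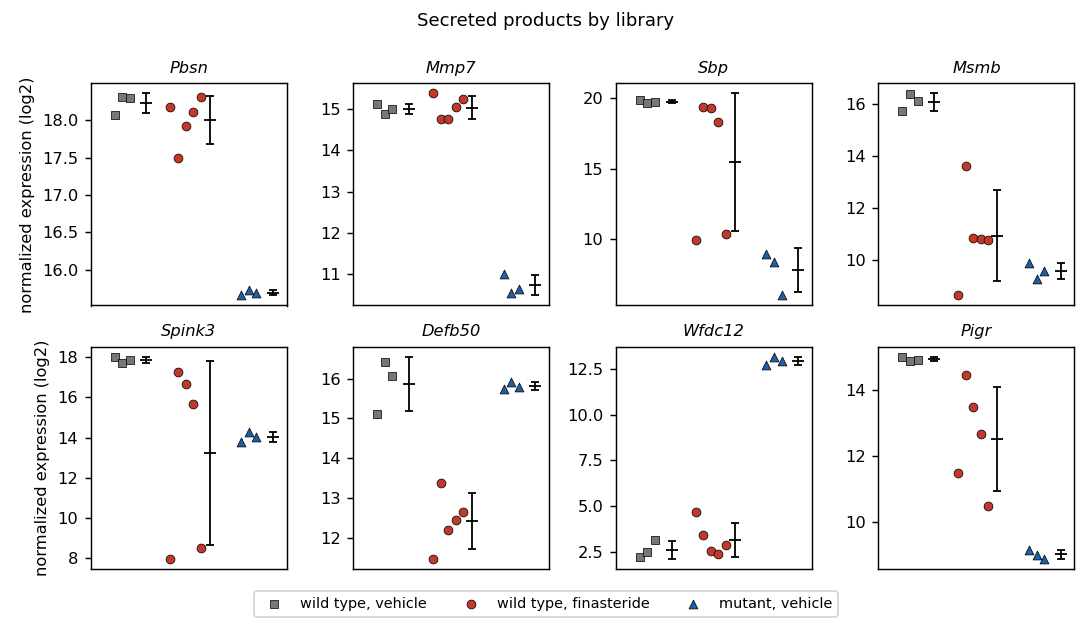
Normalized log2 expression of secreted products in each library of wild type on vehicle, wild type on finasteride and mutant on vehicle, with the mean and SD beside each group. Probasin is at 17.50 to 18.32 in wild type on finasteride and 15.66 to 15.73 in the mutant. Sbp splits the finasteride libraries into 2 above the mutant range, at 9.95 and 10.39, and 3 near wild type on vehicle.

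Some antiproteases with whey acidic protein domains were high in the mutant. Wfdc12 measured 4.67, 3.41, 2.54, 2.35 and 2.85 on finasteride and 12.72, 13.16 and 12.95 in the mutant, with 2.19, 2.46 and 3.14 in wild type on vehicle. It stayed under 5 in both wild type groups, and the difference of -9.78 ± 0.49 was the lowest among the genes named by rule (limma adjusted p = 2.22e-09). Wfdc6b (-4.69 ± 0.42, limma adjusted p = 6.59e-07) and Wfdc8 (-4.28 ± 0.37, adjusted p = 4.65e-07) were also lower on finasteride. Of 9 family members tested 5 were lower and 1 higher on finasteride, and 3 and 0 in the 11-library fit. The lower members included Wfdc15b (-6.70 ± 1.36, limma adjusted p = 0.00142), whose values of 7.93, 6.84, 0.85, 2.76 and 2.31 varied within the finasteride group and whose call was lost in the 11-library fit (adjusted p = 0.0554). The higher member was Slpi, an inhibitor of neutrophil elastase (1.72 ± 0.49, limma adjusted p = 0.0134), whose call was lost in the 11-library fit, with the seminal vesicle level of each library as a covariate, and without mutant library 1 or 3. Klk1b22, a glandular kallikrein, measured 2.86, 2.0, 8.76, 8.07 and 2.38 on finasteride and 9.11, 10.20 and 9.80 in the mutant. Only libraries 3 and 4 approached the mutant, and the difference was -4.89 ± 1.27 (limma adjusted p = 0.00832). Reads of Klk1b22 may be split with near-identical copies.

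Mucosal defence products were divided. Pigr, the receptor that carries antibodies across the epithelium, measured 11.50, 14.47, 13.50, 12.66 and 10.50 on finasteride and 9.16, 9.0 and 8.89 in the mutant, with 15.01, 14.90 and 14.91 in wild type on vehicle. All finasteride libraries lay between the other groups, libraries 1 and 5 lowest, and the difference was 3.51 ± 0.60 (limma adjusted p = 0.00034). Fcgbp, a mucus protein, was higher on finasteride than in either other group, with 13.38, 13.81, 13.64, 14 and 14, against 12.14, 12.29 and 12.17 in the mutant (1.57 ± 0.22, limma adjusted p = 5.07e-05). Itln1, a lectin that binds microbial sugars, was higher by 2.87 ± 0.48 (limma adjusted p = 0.000272). Its levels were low, at 3.55 to 6.13 on finasteride, 1.82 to 2.49 in the mutant and 3.58 to 5.12 in wild type on vehicle. The 2 wild type groups overlapped for Itln1 and the mutant lay below. Lyz1, a lysozyme, was lower, at 5.52, 6.27, 5.44, 5.69 and 5.52 on finasteride and 8.52, 9.28 and 9.08 in the mutant (-3.27 ± 0.27, limma adjusted p = 2.83e-07). Of 15 genes of this list 5 were higher and 2 lower, and 3 and 1 in the 11-library fit.

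Genes of the integrated stress response were mostly higher in wild type on finasteride. In this pathway kinases slow protein synthesis while the factor ATF4 induces genes for amino acid supply and, when stress lasts, for cell death. Of 34 genes tested 26 were higher on finasteride and 2 lower, and 16 and 2 in the 11-library fit. Their median difference was 0.87, against 0.012 over all genes. The list's median was 0.84 for finasteride against vehicle in wild type and -0.0089 for mutant against wild type on vehicle, which share the wild type vehicle libraries.

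Atf4 itself measured 13.44, 12.90, 13.52, 13.32 and 13.13 on finasteride and 12.16, 12.10 and 12.12 in the mutant, with 12.08, 12.24 and 12.17 in wild type on vehicle. The finasteride libraries stood above both vehicle groups, by 1.14 ± 0.11 over the mutant (2.2-fold, limma adjusted p = 1.69e-06). Chac1, an enzyme that breaks down glutathione, measured 11.08, 10.44, 12.14, 11.52 and 10.13 on finasteride, 7.76, 7.90 and 7.81 in the mutant and 9.16, 8.77 and 9.05 in wild type on vehicle. Mutant libraries lay below and finasteride libraries above the wild type vehicle range, a difference of 3.24 ± 0.34 (9.43-fold, limma adjusted p = 3.99e-06). Ddit3, which encodes the pro-death factor CHOP, measured 11.44, 10.50, 12.12, 11.47 and 9.99 on finasteride and 8.36, 8.32 and 8.25 in the mutant (2.79 ± 0.34, limma adjusted p = 1.77e-05). Trib3, a pseudokinase that restrains ATF4, followed with 9.41, 8.56, 9.90, 9.29 and 8.12 and 6.26, 6.53 and 6.32 (2.69 ± 0.29, limma adjusted p = 4.58e-06). In each of these genes finasteride library 5 or library 2 was lowest and library 3 highest, with no overlap with the mutant.

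Genes of amino acid supply were among them. Asns, asparagine synthetase, was higher by 1.60 ± 0.11 (limma adjusted p = 7.18e-08), and Slc1a4, a neutral amino acid transporter, by 1.97 ± 0.13 (adjusted p = 2.18e-08). From wild type on vehicle, Asns differed by 0.56 ± 0.11 on finasteride and -1.04 ± 0.13 in the mutant. For Slc1a4 these differences were 1.15 ± 0.13 and -0.82 ± 0.14. Slc7a11, the cystine importer, measured 7.34, 8.76, 8.92, 8.27 and 7.63 on finasteride, 6.03, 5.60 and 6.18 in the mutant and 7.59, 7.95 and 7.79 in wild type on vehicle. Here the mutant libraries were the ones away from wild type vehicle, which overlapped the finasteride range (2.25 ± 0.30, limma adjusted p = 3.98e-05). The secreted stress hormone Gdf15 was higher by 2.36 ± 0.33 (limma adjusted p = 5.73e-05). The 2 lower members were Cbs (-0.84 ± 0.16, limma adjusted p = 0.000866) and Cth (-0.67 ± 0.12, adjusted p = 0.000581), the pair of enzymes that make cysteine from homocysteine.

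Syvn1 and Herpud1, which act in degradation from the endoplasmic reticulum, had the highest differences of the unfolded protein response list. Of 40 unfolded protein response and folding genes 17 were higher on finasteride and 4 lower, and 6 and 3 in the 11-library fit. Syvn1, the ubiquitin ligase that marks misfolded proteins for export from the reticulum, measured 14.28, 13.83, 15.07, 14.45 and 13.22 on finasteride and 11.97, 11.99 and 11.98 in the mutant, with 11.92, 12.25 and 11.98 in wild type on vehicle. Both vehicle groups lay at one level and the finasteride libraries above, by 2.19 ± 0.27 (4.56-fold, limma adjusted p = 1.8e-05). Herpud1, its partner at the membrane, measured 15.21, 14.70, 15.76, 15.17 and 14.15 and 12.77, 12.96 and 12.84 (2.14 ± 0.23, limma adjusted p = 5.58e-06). Hyou1, a chaperone of the lumen, was higher by 1.13 ± 0.17 (limma adjusted p = 0.000122). Hspa5, the main folding chaperone of the lumen, measured 16.49, 16.21, 17.13, 16.70 and 16.14 on finasteride and 15.36, 15.76 and 15.58 in the mutant. The groups did not overlap, and the difference of 0.97 ± 0.23 passed over all libraries (limma adjusted p = 0.00414) but not in the 11-library fit (adjusted p = 0.102).

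Several folding genes did not pass the test or ran the other way. Pdia6, a disulfide isomerase, measured 15.38, 14.87, 15.28, 15.46 and 15.63 on finasteride and 15.22, 15.46 and 15.31 in the mutant, a difference of -0.0081 ± 0.23 (95% interval -0.49 to 0.47, limma adjusted p = 0.984). Erp44, which retains unfinished proteins (-0.91 ± 0.13, limma adjusted p = 7.82e-05), Fkbp2, a prolyl isomerase of the reticulum (-1.40 ± 0.23, adjusted p = 0.00025), and Ern1, the stress sensor IRE1 (-0.50 ± 0.059, adjusted p = 1.05e-05), were lower on finasteride. Xbp1, whose messenger IRE1 splices, did not pass (0.17 ± 0.077, limma adjusted p = 0.103), and a gene total says nothing of its splicing. Creld2, a further lumen protein, was higher by 0.97 ± 0.30 (limma adjusted p = 0.0218). That call was lost in the 11-library fit (adjusted p = 0.189), with the seminal vesicle level of each library as a covariate (adjusted p = 0.126), and without finasteride library 3, mutant library 1 or mutant library 3, where its limma adjusted p reached 0.0795.

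Promoter sequences are shown for genes of these lists that were higher and for Pdia6, which did not pass the test, because the same motif stands before both kinds. They come from RefSeq, build GRCm38.p6, for windows from 250 bases before to 50 after each start, and 11315 tested genes had such a window. The endoplasmic reticulum stress element was searched on both strands as CCAAT and CCACG separated by 9 bases, and is in capitals in the first 4 stretches. Each stretch ends before the transcription start.
Hspa5 (chr2:34772000-34772068, plus strand): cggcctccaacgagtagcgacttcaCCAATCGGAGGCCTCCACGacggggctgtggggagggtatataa
Syvn1 (chr19:6046507-6046575, plus strand): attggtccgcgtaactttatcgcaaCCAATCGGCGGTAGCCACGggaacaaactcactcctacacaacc
Creld2 (chr15:88819495-88819563, plus strand): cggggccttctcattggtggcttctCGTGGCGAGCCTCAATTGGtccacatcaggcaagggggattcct
Pdia6 (chr12:17266466-17266534, plus strand): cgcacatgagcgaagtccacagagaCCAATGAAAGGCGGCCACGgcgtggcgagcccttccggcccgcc
The element was in 9 of the 31 unfolded protein response genes with a window (29%) and in 19 of all 11315 (0.168%). Of those 9 genes 5 were higher on finasteride, against 13 of the 31 in the list and 1786 of all 11315, and the others, Pdia6 among them, did not pass the test. A match describes these letters and is not a bound site.

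The ATF4 element was searched as TGATGCAA on both strands, and the capitals mark it, read in either direction, in the next 4 stretches.
Chac1 (chr2:119351024-119351081, plus strand): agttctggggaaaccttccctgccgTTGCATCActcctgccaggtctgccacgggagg
Slc7a11 (chr3:50443628-50443704, minus strand): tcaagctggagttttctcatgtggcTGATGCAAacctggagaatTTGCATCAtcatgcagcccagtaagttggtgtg
Atf3 (chr1:191183411-191183468, minus strand): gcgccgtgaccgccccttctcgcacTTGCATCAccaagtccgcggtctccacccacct
Herpud1 (chr8:94386292-94386349, plus strand): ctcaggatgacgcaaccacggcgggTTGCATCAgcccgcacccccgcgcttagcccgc
It was in 6 of 30 integrated stress response genes with a window (20%), in 4 of 12 tRNA synthetase genes (33.3%) and in 82 of all 11315 (0.725%). Slc7a11 carried it on both strands, 66 and 47 bases before its start. Atf3, a stress-induced repressor of the same family, was higher on finasteride by 1.04 ± 0.17 (limma adjusted p = 0.000277). All 4 synthetase genes with the element were higher in wild type on finasteride, as were 9 of the 12 with a window. Of the 6 integrated stress response genes with it 4 were higher, against 24 of the 30 with a window.

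Aminoacyl tRNA synthetases, which load amino acids onto tRNA, were higher in 13 of 20 genes and lower in 1, and in 5 and 1 in the 11-library fit. Scaling to equal totals left 8 higher. Cars measured 11.48, 11.27, 11.65, 11.54 and 11.54 on finasteride and 10.69, 10.79 and 10.81 in the mutant, with 10.76, 10.65 and 10.74 in wild type on vehicle. Both vehicle groups lay together below the finasteride libraries (0.73 ± 0.075, limma adjusted p = 2.83e-06). Iars (0.62 ± 0.082, limma adjusted p = 3.58e-05) and Aars (0.56 ± 0.085, adjusted p = 0.000139) followed. The exception was Wars, the tryptophan enzyme, which interferon is known to induce. It measured 13.88, 13.40, 13.97, 13.86 and 13.78 on finasteride and 15.29, 15.24 and 15.28 in the mutant, a difference of -1.49 ± 0.21 (limma adjusted p = 5.12e-05).

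Cytosolic heat shock genes were higher in 18 of 25 cases and lower in 1. In the 11-library limma fit 4 and 0 passed (14 and 0 at an unadjusted p under 0.05), and with the seminal vesicle covariate 11 and 0. Hspa1a, an inducible chaperone, measured 11.52, 9.70, 11.69, 10.81 and 7.70 on finasteride and 7.44, 6.85 and 7.14 in the mutant. Finasteride library 5 lay close to the mutant and the others well above, and the difference of 3.14 ± 0.63 (limma adjusted p = 0.00131) missed the threshold in the 11-library fit (adjusted p = 0.055). Its near-identical copy Hspa1b, with which reads may be split, showed 3.28, and the co-chaperone Hsph1 showed 2.04, and both also lost the call there. Hspa8, the constitutive member, kept it (1.43 ± 0.26, limma adjusted p = 0.000579, and 0.0339 in the 11-library fit). So did Bag3, a co-chaperone of selective autophagy (1.24 ± 0.22), and Hsp90ab1, which holds steroid receptors ready for ligand (1.04 ± 0.17), at limma adjusted p of 0.000469 and 0.000189. The core of the heat shock element, searched as GAA and TTC separated by 2 bases (a palindrome, so 1 strand serves for both), stood in 12 of 20 heat shock genes with a window (60%) and in 793 of all 11315 (7.01%). One copy is in capitals before Hspa1a.
Hspa1a (chr17:34972228-34972285, minus strand): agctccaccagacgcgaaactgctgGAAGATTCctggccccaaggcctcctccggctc

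**Figure D4:**
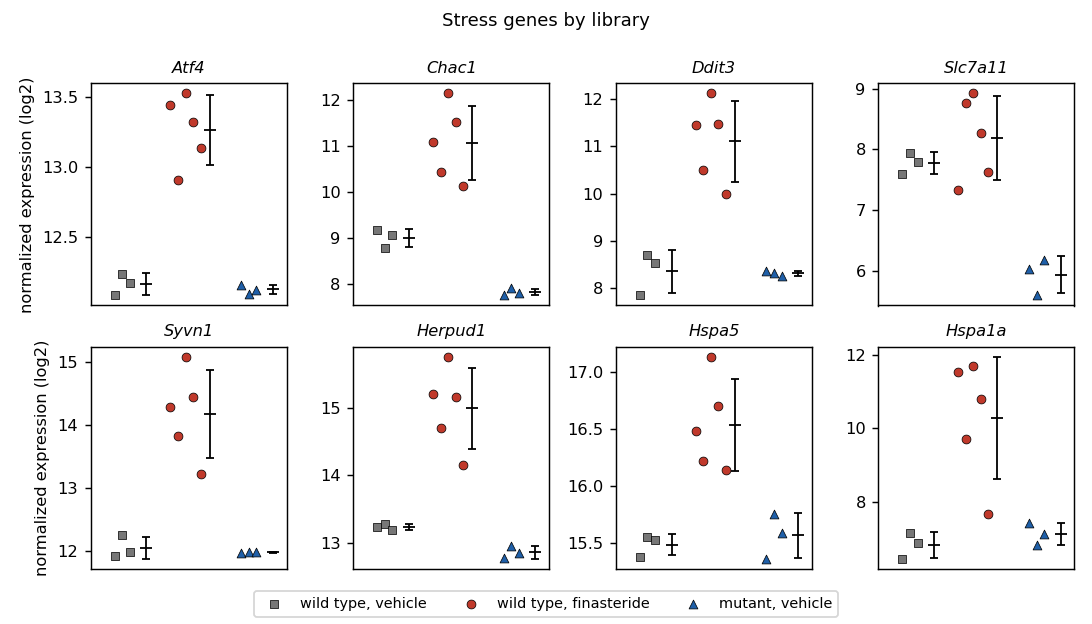
Normalized log2 expression of stress genes in each library of the 3 groups, with the mean and SD beside each group. Chac1 is at 10.13 to 12.14 in wild type on finasteride and 7.76 to 7.90 in the mutant, and Hspa1a in the lowest finasteride library is at 7.70, near the mutant maximum of 7.44.

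Immediate early genes, which respond within minutes to growth factors and to tissue handling, were divided: of 33 tested 13 were higher and 9 lower, and 9 and 3 in the 11-library fit. Without mutant library 3 the lower count was 5. Jun measured 11.19, 10.60, 10.90, 10.90 and 11.03 on finasteride and 9.56, 9.39 and 9.44 in the mutant (1.46 ± 0.12, limma adjusted p = 2.08e-07). Nr4a2 (1.8 ± 0.18, limma adjusted p = 2.27e-06) and Klf6 (0.75 ± 0.093, adjusted p = 1.96e-05) were also higher. Dusp4, a phosphatase that turns off MAP kinases, was lower, at 3.23, 5.27, 2.74, 3.39 and 3.11 on finasteride and 8.14, 9.38 and 9.08 in the mutant, with 6.29, 4.76 and 5.57 in wild type on vehicle. The mutant libraries lay above the wild type vehicle range, and the finasteride libraries other than library 2 lay below it (-5.32 ± 0.86, limma adjusted p = 0.00022).

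Cell cycle genes were lower in wild type on finasteride throughout the members that passed. Of 38 tested, 27 were lower and 0 higher by limma, and 17 and 0 in the 11-library fit, with a median of -0.78. At an unadjusted p under 0.05, 31 were lower and 0 higher. Mki67, a marker of dividing cells, measured 5.70, 8.24, 5.98, 6.13 and 5.83 on finasteride and 8.78, 8.94 and 8.90 in the mutant, with 8.29, 7.85 and 8.29 in wild type on vehicle. Finasteride library 2 lay in the wild type vehicle range and the other 4 far below, and no library overlapped the mutant (-2.50 ± 0.41, limma adjusted p = 0.000264). Mcm5, a subunit of the replication helicase, measured 6.37, 6.13, 5.83, 5.79 and 5.62 and 7.78, 7.88 and 7.73, with 6.85, 6.84 and 6.75 in wild type on vehicle. Wild type vehicle lay between the 2 states (-1.85 ± 0.15, limma adjusted p = 2.91e-07). Uhrf1, which copies DNA methylation (-2.14 ± 0.18, limma adjusted p = 4.79e-07), and Rrm2, which makes deoxynucleotides (-1.54 ± 0.17, adjusted p = 8.07e-06), had the same order. The cell cycle inhibitor Cdkn1a was higher on finasteride (0.49 ± 0.091, limma adjusted p = 0.000717).

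Cell death regulators were higher in 9 of 22 and lower in 2, and in 4 and 0 in the 11-library fit. Bid, which links death receptors to mitochondria (0.73 ± 0.14, limma adjusted p = 0.000969), and Bcl2l2, a protective member (0.45 ± 0.068, adjusted p = 0.000123), were higher on finasteride. Bax, a pore former, was lower (-0.54 ± 0.17, limma adjusted p = 0.0226), but not in the 11-library fit or without mutant library 1 or 2, where the adjusted p reached 0.0885.

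Basal markers were lower in wild type on finasteride than in the mutant in part. Of 18 basal genes 11 were lower and 2 higher, and 7 and 1 in the 11-library fit. Trp63, the master factor of basal cells, measured 8.56, 8.93, 8.45, 8.51 and 8.71 on finasteride and 10.09, 9.91 and 10.03 in the mutant, with 9.18, 8.86 and 8.92 in wild type on vehicle. The mutant libraries stood above both wild type groups (-1.38 ± 0.11, limma adjusted p = 1.44e-07). Krt5, a basal keratin, measured 10.29, 9.73, 9.74, 9.94 and 10.20 and 10.80, 10.89 and 10.78, against 10.44, 10.59 and 10.44 in wild type on vehicle (-0.85 ± 0.14, limma adjusted p = 0.00023). Dsc3, a desmosome protein, was lower (-2.31 ± 0.40, limma adjusted p = 0.000407), at low levels of 1.64 to 3.68 on finasteride and 5.15 to 5.35 in the mutant. Krt14, the partner of Krt5, overlapped between the states (-0.26 ± 0.17, limma adjusted p = 0.282).

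Of 18 proximal luminal genes, which mark the ducts near the urethra and the cells that outlast castration, 9 were lower and 2 higher, and 4 and 1 in the 11-library fit. Clu, the secreted chaperone clusterin, measured 11.20, 11.46, 10.50, 10.93 and 11.27 on finasteride and 14.78, 14.99 and 14.87 in the mutant, with 12.60, 12.73 and 12.61 in wild type on vehicle. The states lay on opposite sides of wild type vehicle, 14-fold apart (-3.81 ± 0.16, limma adjusted p = 3.19e-10). Ly6a, which encodes Sca-1, measured 9.26, 9.29, 8.80, 9.08 and 9.17 and 10.06, 10.30 and 10.20, with 10.23, 10.14 and 10.04 in wild type on vehicle. Here finasteride alone was low (-1.07 ± 0.11, limma adjusted p = 3.01e-06). Atp1b1, a subunit of the sodium pump, was higher on finasteride (0.76 ± 0.11, limma adjusted p = 5.34e-05).

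Uroplakins, plaque proteins of the bladder lining, were set apart in the mutant. Upk2 measured 5.11, 4.50, 4.59, 4.61 and 4.36 on finasteride and 8.31, 7.92 and 8.09 in the mutant, with 5.24, 4.39 and 5.20 in wild type on vehicle. Both wild type groups lay together and the mutant 11.1-fold higher (-3.47 ± 0.28, limma adjusted p = 2.21e-07). Upk1b, abundant in all libraries, was lower on finasteride (-1.76 ± 0.21, limma adjusted p = 1.35e-05). In the other direction, Upk3b (2.59 ± 0.77, limma adjusted p = 0.0173) lost its call in the 11-library fit, in a fit on the 8 libraries alone, and without mutant library 1, where the adjusted p was 0.114. Of 5 urothelial genes tested 4 were lower and 1 higher, and 2 and 0 in the 11-library fit.

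Of 17 luminal genes 4 were higher and 3 lower on finasteride, against 15.0% and 16.1% of all tested genes, and 1 and 2 in the 11-library fit. For 15 of the 17 the 95% interval of the difference lay inside 1 log2 unit. Spdef, a transcription factor of secretory cells, was higher (0.48 ± 0.097, limma adjusted p = 0.00134, and 0.056 in the 11-library fit), and Tspan1, a tetraspanin, was lower (-0.63 ± 0.11, adjusted p = 0.000433). Krt8 measured 12.78, 12.18, 12.32, 12.38 and 12.45 on finasteride and 12.05, 12.21 and 12.09 in the mutant (0.31 ± 0.12, limma adjusted p = 0.0672). Hoxb13 measured 13.07, 12.79, 13.14, 12.96 and 12.79 and 12.61, 12.75 and 12.65 (0.28 ± 0.14, 95% interval -0.0094 to 0.57, limma adjusted p = 0.135), and Foxa1, a pioneer transcription factor of luminal cells, showed 0.088 ± 0.088 (95% interval -0.098 to 0.27). Of 18 prostate transcription factors 8 were lower and 1 higher, and 3 and 1 in the 11-library fit. Sox2 measured 5.82, 5.58, 5.65, 5.71 and 6.01 on finasteride and 7.83, 7.38 and 7.46 in the mutant (-1.8 ± 0.16, limma adjusted p = 5.2e-07), and Sox9 was lower (-0.81 ± 0.13, adjusted p = 0.000264).

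**Figure D5:**
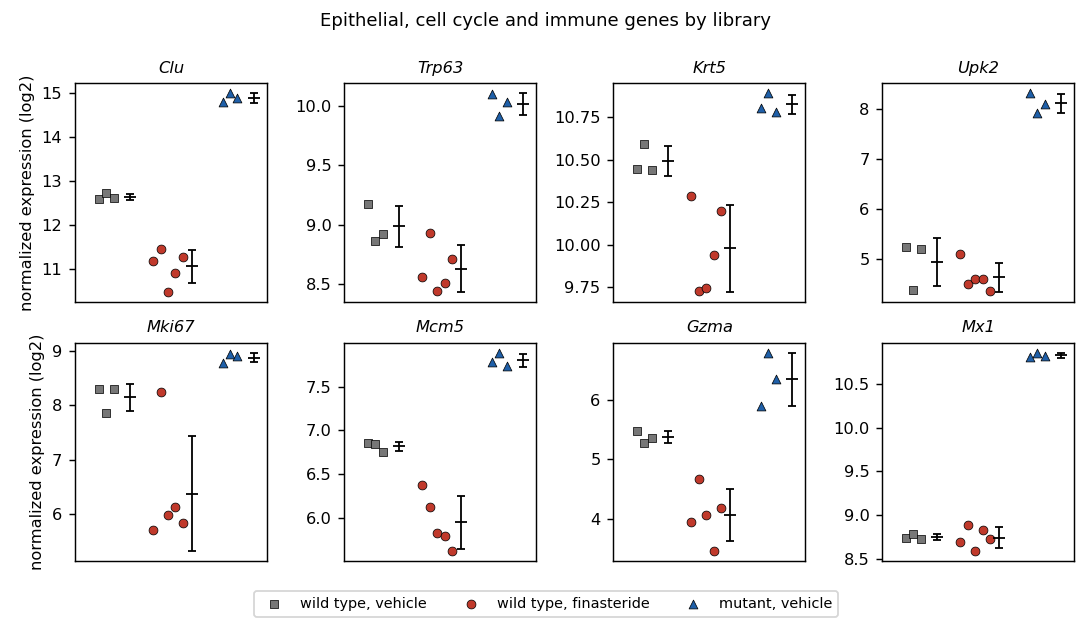
Normalized log2 expression of epithelial (Clu, Trp63, Krt5, Upk2), cell cycle (Mki67, Mcm5) and immune genes (Gzma, Mx1) in each library of the 3 groups, with the mean and SD beside each group. Clu is at 10.50 to 11.46 in wild type on finasteride and 14.78 to 14.99 in the mutant, with wild type on vehicle between.

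Genes of T and NK cells were lower in wild type on finasteride in 19 of 24 cases and higher in 0 by limma, with a median of -1.17, and in 9 and 0 in the 11-library fit. At an unadjusted p under 0.05 these counts were 22 and 0, and 16 and 0. Their levels were low, and with genes under a mean of log2(50) left out the count was 6. Gzma, a granzyme, measured 3.95, 4.67, 4.06, 3.46 and 4.19 on finasteride and 5.89, 6.77 and 6.35 in the mutant, with 5.47, 5.27 and 5.35 in wild type on vehicle. Wild type vehicle lay between the states (-2.27 ± 0.24, limma adjusted p = 3.86e-06). The interleukin receptor chain Il2rb (-1.94 ± 0.23, limma adjusted p = 1.35e-05), the chemokine Ccl5 (-1.65 ± 0.30, adjusted p = 0.000539) and the T cell receptor subunit Cd3e (-1.21 ± 0.23, adjusted p = 0.000878) were lower too. The list's mean log2 level was 3.36 to 4.16 on finasteride, 4.95 to 5.07 in the mutant and 4.38 to 4.46 in wild type on vehicle. Of 23 macrophage and dendritic cell genes 6 were lower, 0 higher, and 0 either way in the limma fit on 11 libraries. At an unadjusted p under 0.05 that fit had 5 lower and 1 higher, and the fit on all libraries 9 and 1. Leaving out single libraries gave from 2 (mutant library 2) to 10 (finasteride library 2) lower.

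Interferon-induced genes were lower in part. Of 35 tested 11 were lower and 2 higher, and 4 and 1 in the 11-library fit. Without finasteride library 2 there were 17 lower, and without mutant library 2 or 3 there were 7. The list's median was -0.73 for finasteride against vehicle in wild type and -0.36 for mutant against wild type on vehicle. Its mean log2 level was 6.97 to 7.93 on finasteride, 7.47 to 7.70 in the mutant and 7.86 to 7.99 in wild type on vehicle. The list as a whole was thus not high in the mutant, unlike some members given next. Mx1, an antiviral GTPase, measured 8.69, 8.89, 8.58, 8.82 and 8.72 on finasteride and 10.81, 10.86 and 10.83 in the mutant, with 8.74, 8.78 and 8.72 in wild type on vehicle. Both wild type groups lay at one level and the mutant 4.26-fold above (-2.09 ± 0.20, limma adjusted p = 1.32e-06). Iigp1, a GTPase against intracellular pathogens (-2.23 ± 0.23, limma adjusted p = 3.69e-06), and the T cell attractants Cxcl9 (-2.57 ± 0.45, adjusted p = 0.00042) and Cxcl10 (-2.11 ± 0.22, adjusted p = 4.1e-06) were lower on finasteride. Oasl1 was higher (1.39 ± 0.18, limma adjusted p = 3.18e-05), as was the cytokine Il18 (0.98 ± 0.19, adjusted p = 0.000883).

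Class I antigen presentation followed. B2m, the light chain of all class I molecules and also an androgen-induced gene, measured 15.36, 15.52, 15.26, 15.22 and 15.24 on finasteride and 17.32, 17.54 and 17.39 in the mutant, with 16.70, 15.86 and 16.34 in wild type on vehicle. Finasteride libraries lay below and mutant libraries above the wild type vehicle range (-2.10 ± 0.21, limma adjusted p = 2.25e-06). The heavy chain H2-K1 was lower (-0.89 ± 0.14, limma adjusted p = 0.000167). Of 20 class I genes 10 were lower and 2 higher, and 3 and 0 in the 11-library fit. Without mutant library 2 the lower count was 6. The list's mean log2 level was 8.75 to 9.39 on finasteride, 9.21 to 9.33 in the mutant and 9.54 to 9.68 in wild type on vehicle. Unlike B2m, the list as a whole was thus not above wild type vehicle in the mutant.

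Stromal lists held higher members and 0 lower ones among those called, against 15.0% higher and 16.1% lower of all tested genes. Of 31 fibroblast and matrix genes 6 were higher on finasteride and 0 lower by limma (10 and 0 at an unadjusted p under 0.05), and 3 and 0 in the 11-library fit. That higher share over all libraries was near the background. Mfap4, a microfibril protein, measured 8.64, 8.02, 8.14, 7.91 and 8.09 on finasteride and 6.93, 6.6 and 6.84 in the mutant, with 7.94, 8.57 and 8.19 in wild type on vehicle (1.37 ± 0.16, limma adjusted p = 7.71e-06). The wild type groups overlapped and the mutant lay below. Fn1, fibronectin, was higher by 0.73 ± 0.15 (limma adjusted p = 0.00121). Emcn, a mucin of capillary and venous endothelium, measured 9.05, 8.98, 9.17, 9.33 and 9.35 on finasteride and 6.36, 6.39 and 6.32 in the mutant (2.82 ± 0.23, limma adjusted p = 2.38e-07). It was the 1 endothelial gene of 16 that was higher, and 0 were lower by limma (3 at an unadjusted p under 0.05), fewer calls than the background share. Of 17 smooth muscle genes 8 were higher and 0 lower over all libraries by limma (11 and 0 at an unadjusted p under 0.05). The higher count was 0 in the 11-library fit (7 unadjusted), 2 without mutant library 2, 4 without mutant library 3 or at equal totals, 5 without finasteride library 1 or 2, and 14 with the seminal vesicle covariate. The contractile genes Cnn1 (0.59 ± 0.17, limma adjusted p = 0.013) and Acta2 (0.51 ± 0.15, adjusted p = 0.0199) lost their calls in the 11-library fit and without mutant library 2, and Acta2 also without mutant library 3, on the 8 libraries alone and at equal totals.

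Fat genes were lower in part. Of 13 adipocyte genes 7 were lower and 0 higher by limma (9 and 0 at an unadjusted p under 0.05), and 2 and 0 in the 11-library fit. Their summed log2 level was 11.8 to 12.7 on finasteride, 12.2 to 12.5 in the mutant and 12.95 to 13.31 in wild type on vehicle. Without mutant library 2 or 3, on the 8 libraries alone or with the seminal vesicle covariate the count was 2, without finasteride library 1 or 5 it was 3, and without library 4 it was 4. Adipoq, adiponectin, measured 2.88, 6.98, 3.93, 2.64 and 2.73 on finasteride, 5.60, 6.70 and 6.15 in the mutant and 8.23, 7.67 and 7.83 in wild type on vehicle. Finasteride library 2 overlapped the mutant and the others lay below, and the call (-2.32 ± 0.72, limma adjusted p = 0.0222) was lost in the 11-library fit, on the 8 libraries alone, with that covariate, and without finasteride library 4 or mutant library 2 or 3. Lpl, lipoprotein lipase, passed in every alternative fit listed in the processing section (-1.17 ± 0.18, limma adjusted p = 0.000143).

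Metabolic genes that stood apart included the metallothioneins, which bind zinc and copper. Mt1 measured 15.48, 14.96, 15.39, 15.45 and 15.50 on finasteride and 12.97, 13.39 and 13.24 in the mutant, with 14.31, 14.31 and 14.28 in wild type on vehicle, and Mt2 measured 14.77, 14.44, 14.91, 14.82 and 14.82 and 12.19, 12.57 and 12.38, with 13.64, 13.79 and 13.75. The states lay on opposite sides of wild type vehicle for both, by 2.15 ± 0.14 (limma adjusted p = 2.27e-08) and 2.37 ± 0.12 (adjusted p = 2.22e-09). The zinc importer Slc39a8 (-0.85 ± 0.082, limma adjusted p = 1.67e-06) and Slc30a2, which loads zinc into secretory vesicles (-1.38 ± 0.28, adjusted p = 0.0015), were lower on finasteride. Got1, the cytosolic aspartate aminotransferase, was higher (0.96 ± 0.13, limma adjusted p = 3.41e-05).

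Gpx3, a secreted glutathione peroxidase, measured 13.86, 13.64, 13.85, 13.38 and 12.69 on finasteride and 16.27, 16.40 and 16.34 in the mutant, with 16.64, 14.99 and 15.88 in wild type on vehicle. The finasteride libraries alone were low (-2.86 ± 0.52, limma adjusted p = 0.000619). Hmox1, heme oxygenase, was higher by 1.16 ± 0.19 (limma adjusted p = 0.000248). In the synthesis of polyamines, which the prostate secretes, Sms, spermine synthase, measured 9.40, 9.08, 9.23, 9.25 and 9.41 on finasteride and 7.93, 7.70 and 7.71 in the mutant (1.5 ± 0.12, limma adjusted p = 3.04e-07). Azin1, which relieves ornithine decarboxylase from its inhibitor, was lower (-1.77 ± 0.16, limma adjusted p = 5.81e-07). Of 22 fatty acid synthesis genes 8 were lower and 1 higher, and 4 and 1 in the 11-library fit, with 5 lower without mutant library 2. Gpam, which starts triglyceride synthesis (-1.32 ± 0.16, limma adjusted p = 1.66e-05), and Thrsp (-1.62 ± 0.30, adjusted p = 0.000646) were lower, and Me1, malic enzyme, was higher (1.09 ± 0.11, adjusted p = 3.2e-06).

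The highest differences among genes named by rule mostly traced to low levels in the mutant. Adam28, a membrane metalloprotease, measured 7.79, 7.56, 7.44, 7.29 and 7.56 on finasteride and 2.86, 2.05 and 0.60 in the mutant, with 9.04, 8.74 and 8.71 in wild type on vehicle (5.69 ± 0.88, limma adjusted p = 0.000153). Ms4a5, a membrane protein (5.02 ± 0.73, limma adjusted p = 8.96e-05), Upb1, an enzyme of pyrimidine breakdown (4.63 ± 0.85, adjusted p = 0.000646), and the orphan receptor Gpr37l1 (4.42 ± 0.33, adjusted p = 9.17e-08) also lay low in the mutant. Their differences from wild type on vehicle were -5.61 ± 0.82, -4.52 ± 0.95 and -4.01 ± 0.36 in the mutant and -0.59 ± 0.73, 0.11 ± 0.85 and 0.41 ± 0.33 on finasteride. Wbscr17, a glycosyltransferase of the mucin-type family, had the lowest p of those named, with 10.32, 10.02, 10.18, 10.14 and 10.07 on finasteride and 5.88, 5.80 and 5.71 in the mutant (4.35 ± 0.074, limma adjusted p = 2.98e-15). Wild type vehicle libraries held 9.27, 9.22 and 9.17. The states of Wbscr17 thus lay on opposite sides of wild type vehicle, by 0.93 ± 0.074 on finasteride and -3.42 ± 0.083 in the mutant.

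In other genes too, the states lay on opposite sides of wild type on vehicle. Grin2d, a glutamate receptor subunit, measured 11.62, 10.88, 11.08, 11.19 and 11.30 on finasteride and 6.27, 6.10 and 6.05 in the mutant, with 6.61, 9.56 and 8.66 in wild type on vehicle (5.08 ± 0.42, limma adjusted p = 3.18e-07). Klf12, a transcriptional repressor, measured 8.30, 8.97, 8.93, 8.86 and 8.88 and 4.70, 3.80 and 4.53, with 6.96, 7.65 and 6.79 (4.44 ± 0.26, limma adjusted p = 9.37e-09). The vasoactive peptide Adm2 measured 8.22, 7.97, 8.71, 8.35 and 7.99 and 4.45, 3.89 and 4.30, with 6.11, 6.13 and 5.73 (4.03 ± 0.24, limma adjusted p = 1.1e-08). Finasteride libraries lay above and mutant libraries below the wild type vehicle range in all 3, although the mutant values of Grin2d lay close to wild type vehicle library 1. Basp1, a membrane protein of growing nerve endings, had the same order (4.68 ± 0.36, limma adjusted p = 1.51e-07). Aldh1a2, which makes retinoic acid, was higher by 3.66 ± 0.44 (limma adjusted p = 1.3e-05). It differed from wild type on vehicle by 0.57 ± 0.44 on finasteride, where the ranges overlapped, and by -3.09 ± 0.49 in the mutant.

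The lowest differences split by their wild type vehicle values. Slc28a2, a nucleoside importer, measured 4.88, 4.07, 4.03, 4.19 and 4.90 on finasteride and 10.27, 11.44 and 11.05 in the mutant, with 5.06, 4.49 and 5.04 in wild type on vehicle (-6.51 ± 0.42, limma adjusted p = 2.15e-08). Khdc1a (-6.68 ± 0.77, limma adjusted p = 9.03e-06) and Ido1, which breaks down tryptophan (-5.42 ± 0.58, adjusted p = 4.72e-06), were likewise high in the mutant alone. Nos1, neuronal nitric oxide synthase, measured 3.81, 2.52, 2.66, 3.17 and 2.29 on finasteride and 9.56, 10.17 and 9.93 in the mutant, with 5.16, 9.73 and 8.81 in wild type on vehicle. The finasteride libraries lay below both other groups, of which wild type vehicle library 1 was the nearest (-7.00 ± 0.71, limma adjusted p = 2.58e-06).

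Another set tracked, among the wild type vehicle libraries, the seminal vesicle secretion genes, products of a neighbouring gland. Of 8 such genes tested 3 were lower on finasteride and 0 higher by limma (4 and 0 at an unadjusted p under 0.05). The mean log2 level over the 11 genes of the list in the table was 4.82 to 6.74 on finasteride, 8.19 to 8.49 in the mutant, and 14.19, 5.18 and 13.02 in wild type vehicle libraries 1 to 3. Svs3a, a seminal vesicle protein, measured 5.41, 6.75, 5.13, 5.07 and 5.26 on finasteride, 13.34, 14.69 and 14.19 in the mutant and 17.17, 5.64 and 15.88 in wild type on vehicle (-8.55 ± 1.72, limma adjusted p = 0.00132). Ceacam10, an adhesion family member, measured 6.86, 6.45, 5.70, 7.06 and 7.78, 12.81, 14.55 and 13.97 and 16.24, 7.36 and 15.04 in the same order (-7.01 ± 1.34, limma adjusted p = 0.000895). Both were high in wild type vehicle libraries 1 and 3 and low in library 2, like the list. Gad2, which makes GABA (-7.34 ± 0.74), the potassium channel Kcnj15 (-6.50 ± 0.48), the sulfhydryl oxidase Qsox1 (-6.14 ± 0.43) and Nlrp10, an innate immune regulator (-5.40 ± 0.57), were also lowest in library 2 among the wild type vehicle libraries, at limma adjusted p of 2.41e-06, 8.77e-08, 5.31e-08 and 4.25e-06. Gad2 measured 13.43, 13.70 and 13.58 in the mutant and 8.39, 3.87 and 7.39 in wild type on vehicle. Kcnj15 measured 10.67, 10.90 and 10.75 against 7.77, 4.87 and 6.52, and Qsox1 16.14, 16.50 and 16.32 against 13.81, 11.53 and 12.90. For Gad2, Kcnj15 and Qsox1 the mutant thus lay above wild type vehicle libraries 1 and 3, though below them in seminal vesicle level. A fit with the seminal vesicle level as a covariate was added after the data were seen. In it the differences of Svs3a, Ceacam10, Gad2, Kcnj15, Qsox1 and Nlrp10 were -5.27, -4.55, -6.30, -5.66, -5.59 and -4.87, all still past the threshold. Svs3a is itself part of that level, and the level did not overlap between the 2 states. That fit is therefore no test for adjoining gland tissue, and the part of such tissue in these differences was not tested.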

How the data were processed

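Poly-A RNA of mouse prostate was sequenced in 16 libraries (TruSeq kits, HiSeq2000, per the labels' protocols). The submitters' processing notes name CASAVA 1.8.2, TopHat, Cufflinks, DESeq, DESeq2 and mouse build mm9, without saying which tool made which value. The deposited table holds normalized log2 expression for 29535 genes, which the authors computed; its low values do not reveal read counts, so depth and counting error are unknown. Library groups came from the labels and columns were matched by name.

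The test was limma (version 3.58.1, R 4.3.3), fitted to the deposited log2 values as 4 group means over all 16 libraries, with a trend in the variance and Benjamini-Hochberg adjustment over all 16506 genes kept. The threshold was an adjusted p of 0.05, and intervals are at 95%. The script was tested on simulated data. Alternatives were a fit without mixture-like libraries (a root mean square residual under 0.1 from a mixture of 2 libraries of the group, both weights over 0.2, over genes of log2 8 or more), the 8 compared libraries alone, quantile normalization, equal library totals, no filter, a mean of at least log2(50), a pseudocount of 8 on the linear scale, no variance trend and each library left out. The seminal vesicle level as a covariate and the ATF4 element were added after the data were seen.

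The members and the 47 gene lists were chosen with earlier results of these data known. Genes were named by rule: Srd5a1, Srd5a2, Srd5a3, Pbsn, Msmb and Fkbp5; the 12 highest and 12 lowest differences among genes called in the fits with and without mixture-like libraries, without overlap and with a group mean of at least log2(50); up to 4 members of lowest p in each list; and up to 8 genes each way at a common level in both states (95% interval inside 0.5 log2 units), of which a part is given. Chosen after their values were seen were Slpi, Sbp, Spink3, Nkg7, Ddit3, Trib3, Slc7a11, Atf3, Gdf15, Cbs, Cth, Hspa5, Creld2, Pdia6, Fkbp2, Hyou1, Xbp1, Hspa1b, Hsph1, Mki67, Bax, Krt14, Upk3b, Krt8, Foxa1, Hoxb13, Cd3e, Acta2, Gpx3 and Slc30a2. The mutated gene and certain further genes picked by this rule are not reported here. Promoter windows were matched by symbol to RefSeq sequences of build GRCm38.p6, a build other than that of the deposited values, so coordinates of these builds were not combined.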

Additional observations from a re-analysis of the deposited data

Results flagged for a closer look

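Among the 5 wild type finasteride libraries, 1 library stood apart for 18 of 201 genes and list means examined, by a gap to its nearest neighbour of more than 0.71 of the group's range (Dixon's criterion at 95%). Chance alone gives such a gap in about 1 in 20 groups. Library 2 was the one standing apart in 10 of them. It was the highest for Mki67 (a gap of 0.83 of the range), Dusp4 (0.743), Svs3a (0.796) and Khdc1a (0.755), and the lowest for Gdf15 (0.716) and Mt1 (0.801). Its list mean was the highest for cell cycle genes (0.916), prostate transcription factors (0.781) and interferon-induced genes (0.726), and the lowest for signal peptide and translocation genes (0.847). Library 1 was the lowest for Pgr (0.745), Prlr (0.739) and Klf12 (0.83) and the highest for Acta2 (0.777), with the highest list means for antioxidant enzymes (0.853), nerve and glia (0.738) and neuroendocrine cells (0.712). Library 5 was the lowest for Cd3e (0.715). The other groups hold 3 libraries or take no part in the comparison and were not examined in this way.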

How the results depend on the processing

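No paired analysis was possible because the running numbers of the libraries pair nothing. Without the mixture-like libraries 2001 genes differed in place of 5143, with 850 higher and 1151 lower. That fit has fewer libraries, and whether those left out are separate samples was not tested. At equal library totals 1369 were higher. With a mean of at least log2(50), which leaves fewer genes, 884 differed by over 1 log2 unit in place of 1327, and 2 in place of 4 finasteride libraries lay nearer to the mutant. Leaving out each library in turn gave 3770 to 5572 genes different, 1765 to 2734 higher, 2005 to 2838 lower, 1210 to 1422 different by over 1 log2 unit and 11820 to 12497 within it, with the fewest calls without mutant library 2 (3770) and the most without finasteride library 2 (5572). The other alternatives gave 4059 to 5106 genes different.

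Of the 152 genes examined one by one, 0 changed direction past the threshold in any alternative. Without the mixture-like libraries 136 stayed on their side of the threshold and 16 lost the call. The genes named as highest or lowest had to pass that fit, and list members were mostly taken by low p. These counts are therefore no measure for all genes, of which that fit kept 1996 of 5143 calls in the same direction. The 8 libraries alone lost 3 calls, equal totals 1 and the seminal vesicle covariate 3, quantile normalization gained 3, and leaving out 1 library kept 148 to 151. Signal over background is unknown for log2 values near the lower limit, where differences are least certain.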

Other observations

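In some lists fewer members were called than the 31.2% of all tested genes. All 55 oxidative phosphorylation genes tested had a 95% interval of the difference inside 1 log2 unit, with 1 higher and 4 lower by limma. All 31 proteasome genes did too, with 3 lower and 0 higher by limma (5 and 0 at an unadjusted p under 0.05). Of 50 cytosolic ribosome genes 2 were higher and 0 lower by limma, against 8 and 0 at an unadjusted p under 0.05, and without finasteride library 2 the higher count was 8. In other lists the share called was somewhat above that background. Signal peptide and translocation genes, which bring secretory proteins into the endoplasmic reticulum, were higher in 11 of 39 and lower in 4. At equal library totals 9 were higher and 10 lower, so their direction depends on the scaling. Of 25 cholesterol synthesis genes 4 were higher and 5 lower.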
